A study of Equus caballus with 20 samples.

Results

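The genes described here take part in moving calcium across the surface membrane of the cell or in sensing calcium. They comprise the sensors and channel of store-operated calcium entry (Stim1, Stim2, Orai1), the sodium-calcium exchangers (Slc8a1, Slc8a3), the plasma membrane calcium pumps (Atp2b1, Atp2b4) and the calcium-sensing receptor (Casr). Members were found by gene symbol, ignoring case, in the annotation of the array, and symbols written in the mouse style were kept apart from those in capitals. Of 24493 probes, 10 carried such a symbol, 8 in the mouse style and 2 in capitals (SLC8A1 and CASR), which made 8 of 12187 symbols on the array. They covered 6 of the 8 genes, and no annotated probe was named Stim2 or Atp2b4. Biopsies came from 15 horses of the French Trotter breed, of which 10 were sound controls and 5 had recurrent exertional rhabdomyolysis (RER) and high muscle enzyme activities in plasma. RNA of the gluteus medius and of the longissimus lumborum of each RER horse was compared with the pool of control RNA of the same muscle on 2 arrays with the dyes exchanged. This gave 20 arrays of log2 ratios in 10 dye-swap pairs, and 5 horses per muscle. The pool is 1 sample per muscle, so the spread among controls enters no value below, and the number of horses limits every one of them.

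RER is a disorder in which exercise is followed by stiffness, pain and breakdown of muscle fibres. In a fibre most calcium for contraction comes from the sarcoplasmic reticulum. When that store empties, STIM1 in its membrane senses the loss and opens ORAI1, a channel in the surface membrane and the transverse tubules, which lets calcium in from outside. Calcium leaves the cell through the plasma membrane pumps, which use ATP and are activated by calmodulin, and through the exchangers, which trade calcium for sodium and can run in either direction. In humans, variants of STIM1 and ORAI1 that change this entry cause muscle disease.

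The arrays carry limits that touch every member. Per horse and muscle the value is the mean of both arrays of a pair, each centred on its median. The likely reading of a positive ratio is more transcript in RER muscle than in the pool, but the labels do not state the direction, and in gluteus the Cy3 array of horse 2 and that of horse 4 ran against each other (r = -0.34 over probes). If the direction is the reverse on every array, the sizes below stand and every sign turns. In 4 of 10 dye-swap pairs, however, the 2 arrays correlated below 0. These were gluteus of horses 2 and 3 (r = -0.21 and -0.27) and longissimus of horses 1 and 2 (-0.27 and -0.32). If the direction differs within a pair, the sizes change as well. One set of 10 arrays held 22032 to 24050 values (gluteus of horses 1, 2 and 3, longissimus of horses 1 and 2) and the other 10 held 8966 to 17708, and each muscle of a horse lies wholly on arrays of a single kind. These are called dense and sparse arrays, and in either muscle array kind and horse cannot be told apart. The longissimus of horse 4 stood apart, with log2 ratios of -4.78 for Ckm, -4.88 for Casq1 and -3.14 for Ryr1, all markers of skeletal fibres. The fibre markers Acta1, Myh7 and Mb lay above 0 there, at 0.47, 0.29 and 0.16. The median over the list of fibre markers was -2.95 (3 of 7 above 0), against -0.43 to 0.25 in the other samples. Longissimus means are therefore also given without that horse. The ratios hold no levels, so how strongly a gene was expressed was not measured, although all 10 probed symbols of the fibre marker list, Ckm and CKM counted apart, had values, 6 of them on all 20 arrays and Myh1 and CKM on 8 and 10. In such bulk RNA, fewer cells of a type and less transcript per cell cannot be told apart.

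No member differed from the control pool at the threshold. Of the 8 member symbols 5 had values in at least 4 horses of each muscle (Stim1, Orai1, Slc8a1, Slc8a3 and Casr) and were tested, and limma with Benjamini-Hochberg adjustment over 10176 features called 0 of these 5 at an adjusted p under 0.05 in either muscle. The background was 0% of all features in gluteus, in longissimus and in the difference between them, and 0% of 10063 features in the mean of both muscles. Before adjustment, 187 features in gluteus and 426 in longissimus had a p under 0.05. The median log2 ratio of the 5 members was 0.039 in gluteus against -0.0096 for all features, with 4 of 5 above 0, and -0.046 in longissimus against -0.0032, with 3 of 5 below 0. Of all features 53.9% lay below 0 in gluteus and 51.0% in longissimus. Without horse 4 the gluteus median was 0.034 against -0.0064, with 3 of 5 members and 4819 of 10176 features above 0. The longissimus median was then -0.089 against -0.0096, with 4 of 5 members and 5450 of 10176 features below 0. In gluteus the 95% confidence interval of Stim1 lay wholly below 0, as it did for 1.21% of all features, and the intervals of the other 4 members held 0. That of Stim1 took in 0 without horse 1 (mean -0.22) or horse 3 (-0.16), on dense arrays (-0.26) and on Cy5 arrays (-0.049). In longissimus the intervals of all 5 held 0, where 4.19% of all features had an interval without it. Across 80 dye-swap pairs of member probes the arrays of a pair shared a sign in 46, or 57.5%, near the 54.4% of all tested features.

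**Figure D1:**
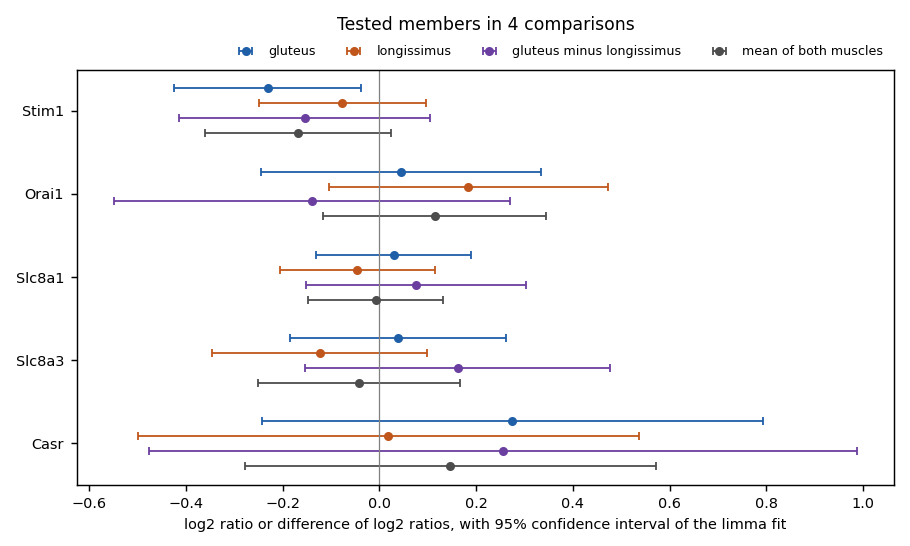
Mean log2 ratios of the 5 tested members in gluteus and longissimus, their difference and the mean of both muscles, with bars for the 95% confidence interval of the limma fit (4 or 5 horses). The interval of Stim1 in gluteus, from -0.42 to -0.038, is the only 1 of the 20 that does not hold 0, and Casr has the widest intervals.

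Stim1, the calcium sensor of the reticulum, lay below 0 in gluteus of every horse that gave a value. The log2 ratio was -0.25 in horse 1, -0.092 in horse 2, -0.45 in horse 3 and -0.13 in horse 5, and horse 4 gave none. Horse 3 was the lowest, and no horse reached 0. The mean was -0.23 ± 0.086 (SE, n = 4) with an interval from -0.42 to -0.038, the adjusted p of the limma fit was 1, and Stim1 ranked 63rd of 10176 features by p. An exact sign-flip test over the 4 horses gave p = 0.125, the smallest that 4 horses allow, and 0.673 after adjustment over the 20 such tests of members. Of all tested features 4.23% were below 0 in every gluteus horse with a value, against 1 of 5 members. That share joins features with 4 horses and with 5 and takes in runs below 0 alone. The share among features with 4 horses, as Stim1 had, was not counted. In longissimus Stim1 was at -0.11, 0.065, -0.20, 0.033 and -0.18 in horses 1 to 5, above 0 in horses 2 and 4. Its mean there was -0.077 ± 0.077 (SE, n = 5), and -0.10 without horse 4.

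The negative Stim1 ratios came mainly from arrays of a single dye orientation. With RER RNA in Cy3, Stim1 was below 0 on 9 of 9 arrays of both muscles, from -0.83 to -0.15 in gluteus and from -0.41 to -0.051 in longissimus. A like run below 0 on every Cy3 array was seen for 1.59% of 10222 probes with at least 9 Cy3 values. With RER RNA in Cy5 it ranged from -0.12 to 0.067 in gluteus and from -0.064 to 0.28 in longissimus, below 0 on 5 of 9 arrays. The gluteus mean was -0.41 in the Cy3 arrays and -0.049 in the Cy5 arrays, and the longissimus mean was -0.24 and 0.085. With the Cy3 array turned in the pairs whose arrays correlate below 0, which in gluteus are those of horses 2 and 3, the mean became 0.038. Each mean over both orientations holds as many Cy3 as Cy5 arrays, so a dye shift of equal size on both cancels in it where both ratios run the same way.

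Orai1, the channel that STIM1 opens, showed its widest spread in longissimus. There it was at 0.58 in horse 1, -0.44 in horse 2, 0.14 in horse 3, 0.58 in horse 4 and 0.067 in horse 5, so 4 of 5 horses were above 0 and horse 2 was clearly below. Both arrays of the pair shared their sign in 5 of 5 horses. The mean was 0.18 ± 0.13 (SE, n = 5) with an interval from -0.11 to 0.47 and an adjusted p of 0.827 in limma. That SE rests on a spread shared by both muscles in the fit. Among horses the SD was 0.42 in longissimus and 0.11 in gluteus. The longissimus mean rested on single horses, at 0.086 without horse 4, 0.085 without horse 1 and 0.34 without horse 2 (adjusted p = 0.562 in limma). In gluteus the values were 0.059, -0.064, -0.054, 0.087 and 0.19 in horses 1 to 5, all close to 0. Their mean was 0.044 ± 0.13 (SE, n = 5), and its interval from -0.24 to 0.33 spans 0.844-fold to 1.26-fold. On dense and sparse arrays the means were -0.020 and 0.14 in gluteus, and 0.068 and 0.26 in longissimus.

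**Figure D2:**
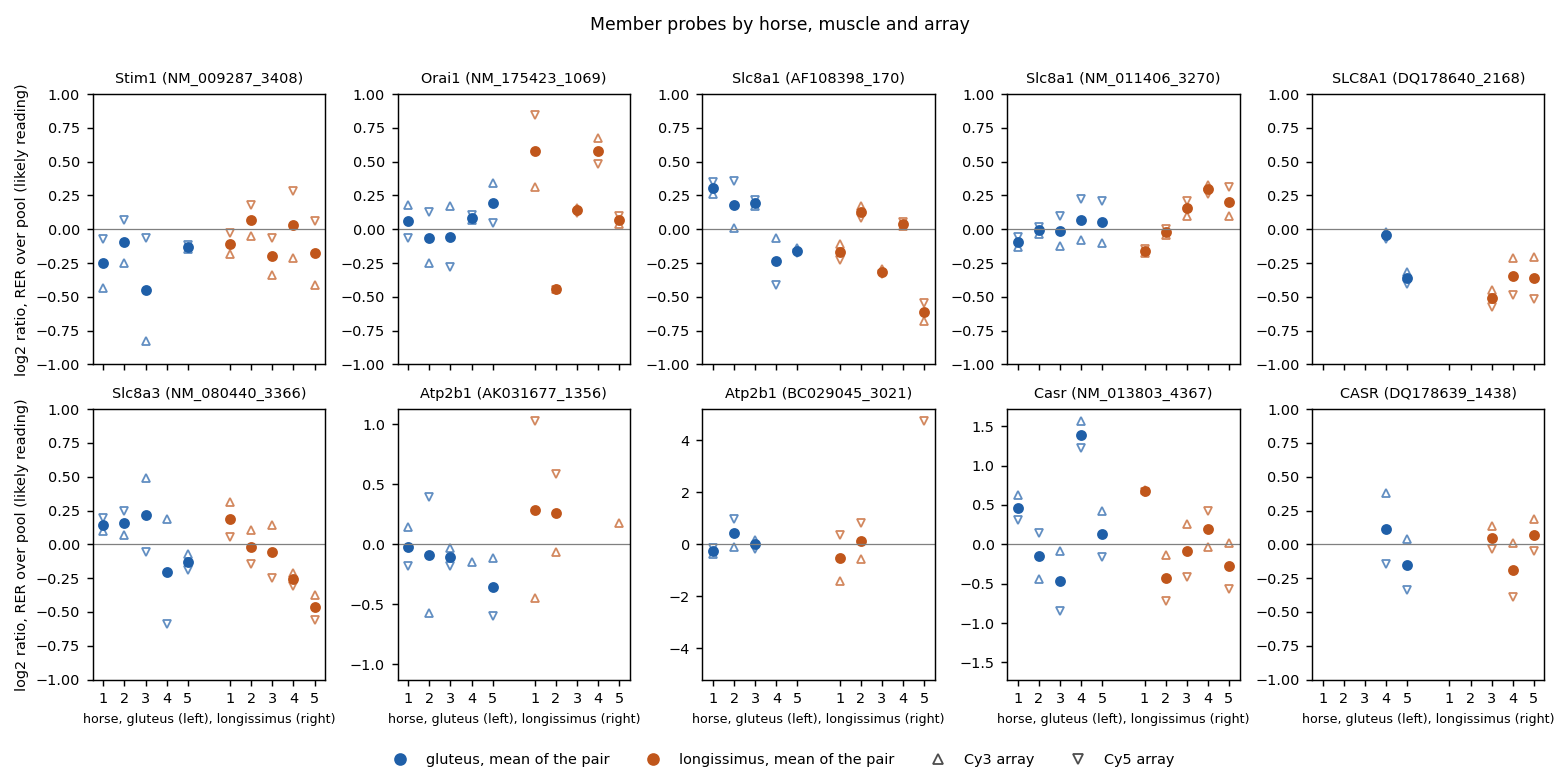
Log2 ratios of the 10 member probes by horse in gluteus (left of each panel) and longissimus (right). Filled points are the mean of a dye-swap pair and open triangles its Cy3 (up) and Cy5 (down) arrays, and the vertical scale differs between panels. SLC8A1 is below 0 at each of its 5 points, Stim1 lies lower in its Cy3 arrays, and Casr is highest in gluteus of horse 4 at 1.39.

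Of the sodium-calcium exchanger 1 gene, 3 probes were read, and they did not move together. The probe in capitals, SLC8A1 (DQ178640_2168), had values on sparse arrays alone, as did 380 probes of the whole array. Its log2 ratio was -0.045 and -0.36 in gluteus of horses 4 and 5, and -0.51, -0.35 and -0.36 in longissimus of horses 3, 4 and 5. All 5 values and all 10 arrays behind them lay below 0. Of 291 probes read on sparse arrays alone with 10 values, 14.1% were below 0 in all 5 horse values and 7.9% on all 10 arrays. The longissimus mean was -0.41 ± 0.091 (SD, n = 3) and the gluteus mean -0.20 (n = 2), and without horse 4 the longissimus mean was -0.44 (n = 2). With too few horses for the test of all arrays, SLC8A1 was tested only in a fit of sparse arrays over 6523 features. There its longissimus interval ran from -0.72 to -0.098 with an adjusted p of 0.703 in limma, and in gluteus the adjusted p was 0.999. The share of all features with an interval without 0 in that fit was not counted. That fit called 0.0153% of features in gluteus and 0.0153% in longissimus, and neither SLC8A1 nor CASR was among them.

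The first mouse-style probe, Slc8a1 (AF108398_170), gave the same sign on both arrays of a pair in 10 of 10 pairs, which 1.31% of 6323 probes with 10 pairs did. In gluteus it was at 0.30, 0.18 and 0.19 in horses 1 to 3 and at -0.24 and -0.16 in horses 4 and 5. The horses on dense arrays were thus above 0 and those on sparse arrays below. Such a split in gluteus, in either direction, was found in 22.8% of 8554 probes with all 5 horses, and in 3 of the 5 member probes with all 5 (both mouse-style Slc8a1 probes and Slc8a3). In longissimus it was at -0.17, 0.13, -0.31, 0.038 and -0.61 in horses 1 to 5, lowest in horse 5. Fitted by probe, the means were 0.057 ± 0.12 (SE, n = 5) in gluteus and -0.19 ± 0.12 (SE, n = 5) in longissimus, with adjusted p of 1 and 0.838 in limma. Without horse 4 the longissimus mean was -0.24, and without horse 5 it was -0.080.

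The second mouse-style probe, Slc8a1 (NM_011406_3270), stayed nearer to 0 and ran the other way. In gluteus it was at -0.092, -0.0083, -0.013, 0.072 and 0.053 in horses 1 to 5, all near 0, with the 3 horses on dense arrays below it and the 2 on sparse arrays above. In longissimus it was at -0.16, -0.017, 0.16, 0.30 and 0.20, and there the 3 horses on sparse arrays were above 0 and the 2 on dense arrays below, a split found in longissimus in 4.02% of 7927 probes with all 5 horses and in 1 of 6 such member probes. Its longissimus mean was 0.095, and 0.045 without horse 4. At each of the 5 points where SLC8A1 was below 0, this probe was above it. The AF108398_170 probe was below 0 at 4 of those 5 points. The mean of both mouse-style probes, the value tested for Slc8a1, was 0.030 ± 0.073 (SE, n = 5) in gluteus and -0.046 ± 0.073 (SE, n = 5) in longissimus, and -0.099 in longissimus without horse 4. This average therefore joins probes that differ in sign, and how well each matches horse RNA was not tested.

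**Figure D3:**
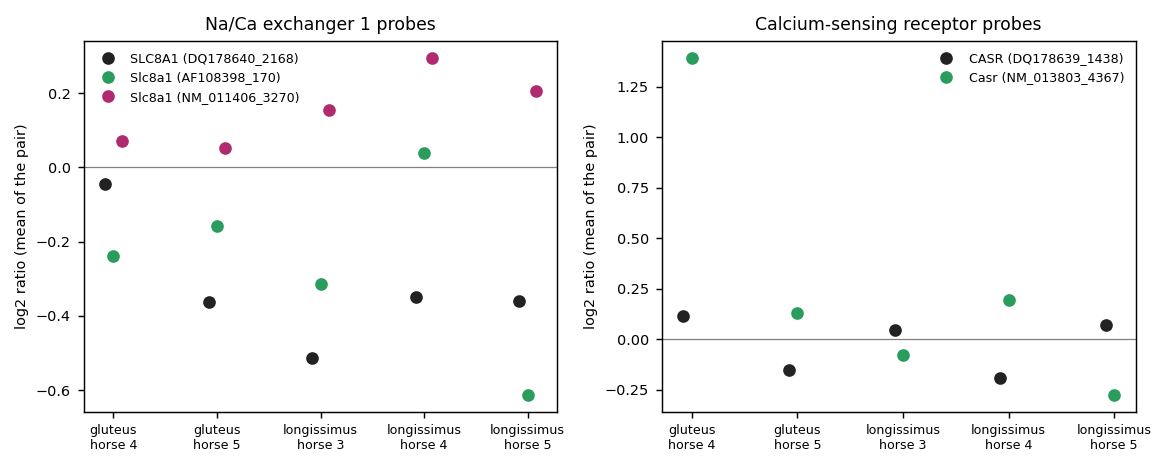
Log2 ratios of probes of the same gene at the 5 points where the probes in capitals were read. For exchanger 1 the SLC8A1 probe is below 0 and the NM_011406_3270 probe above 0 at all 5. For the calcium-sensing receptor the probes lie 1.28 apart in gluteus of horse 4.

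Slc8a3 is the exchanger isoform of skeletal muscle and brain. In gluteus it was at 0.15, 0.16 and 0.22 in horses 1 to 3 on dense arrays and at -0.20 and -0.13 in horses 4 and 5 on sparse arrays. The means within the kinds were 0.17 and -0.17, and this is the split that 22.8% of probes showed. In longissimus it was at 0.18, -0.020, -0.056, -0.26 and -0.46 in horses 1 to 5, above 0 in horse 1 alone, with a mean of 0.082 on dense and -0.26 on sparse arrays. The gluteus mean over all horses was 0.039 ± 0.10 (SE, n = 5, adjusted p = 1 in limma). The longissimus mean was -0.12 ± 0.10 (SE, n = 5, adjusted p = 0.831 in limma). It was -0.089 without horse 4, -0.038 without horse 5 and -0.20 without horse 1. The part of the array kind in these values was not tested. Across the 10 horse and muscle values, each less the mean of its muscle, Slc8a3 correlated at 0.67 with the AF108398_170 probe of Slc8a1 and at -0.79 with its NM_011406_3270 probe. These points share arrays, horses and array kind, so the coefficients are descriptions.

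Atp2b1, the widely expressed plasma membrane calcium pump, was measured too thinly for the test of both muscles. Its probe AK031677_1356 was at -0.020, -0.088, -0.11 and -0.36 in gluteus of horses 1, 2, 3 and 5, all below 0, and at 0.29 and 0.26 in longissimus of horses 1 and 2. Both arrays of a pair had the same sign in 2 of 4 pairs in gluteus and in 0 of 2 in longissimus. The other probe, BC029045_3021, was at -0.24, 0.44 and 0.0027 in gluteus of horses 1 to 3 and at -0.51 and 0.12 in longissimus of horses 1 and 2, with a shared sign in 1 of 5 pairs. Over both probes the gluteus mean was -0.091 ± 0.22 (SD, n = 4), and -0.0030 without horse 5, which had 1 of the probes, on sparse arrays. With gluteus fitted alone its limma interval ran from -0.34 to 0.16 with an adjusted p of 0.888, in a fit that called 0% of 13612 features.

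The calcium-sensing receptor, known as the sensor by which the parathyroid gland reads blood calcium, was read by a probe of each kind. The mouse-style probe Casr had the widest spread of the tested members. In gluteus it was at 0.47 in horse 1, -0.15 in horse 2, -0.47 in horse 3, 1.39 in horse 4 and 0.13 in horse 5. Horse 4 stood highest, on both its Cy3 array (1.56) and its Cy5 array (1.23), and the others lay on both sides of 0. The mean of 0.27 ± 0.23 (SE, n = 5, adjusted p = 1 in limma) rested on that horse and was -0.0050 without it. The same gluteus sample had ratios of 1.71 for Col1a1, 3.63 for Col1a2 and 0.80 for Dcn, the tested fibroblast and matrix markers, so 3 of 3 lay above 0, and 0.50 for the 1 nerve marker with a value. Its fibre markers had a median of -0.40, with 0 of 6 above 0. In the other gluteus samples the matrix median ranged from -0.67 to 0.21. Horse 1 had the next highest Casr values, 0.68 in longissimus and 0.47 in gluteus. Its matrix median was -0.26 in either muscle, with 0 of 3 above 0, and its gluteus fibre median was -0.35. Casr had a mean of -0.050 on dense and 0.76 on sparse gluteus arrays. The part of matrix cells in the Casr value was not tested. In longissimus Casr was at 0.68, -0.43, -0.079, 0.20 and -0.27 in horses 1 to 5, with a mean of 0.019 ± 0.23 (SE, n = 5) and of -0.026 without horse 4.

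The probe in capitals, CASR (DQ178639_1438), did not share the high value. On the arrays of horse 4 gluteus that gave 1.39 for Casr, CASR stood at 0.12, with 0.38 in Cy3 and -0.14 in Cy5. Its other values were -0.15 in gluteus of horse 5 and 0.048, -0.19 and 0.069 in longissimus of horses 3 to 5, all close to 0. The longissimus mean was -0.025 (n = 3), and 0.058 without horse 4. CASR was above 0 on 5 of 5 Cy3 arrays and below 0 on 5 of 5 Cy5 arrays, a split by dye found in 2.06% of the 291 probes read on sparse arrays alone. Casr and CASR had opposite signs at 4 of the 5 shared points.

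**Figure D4:**
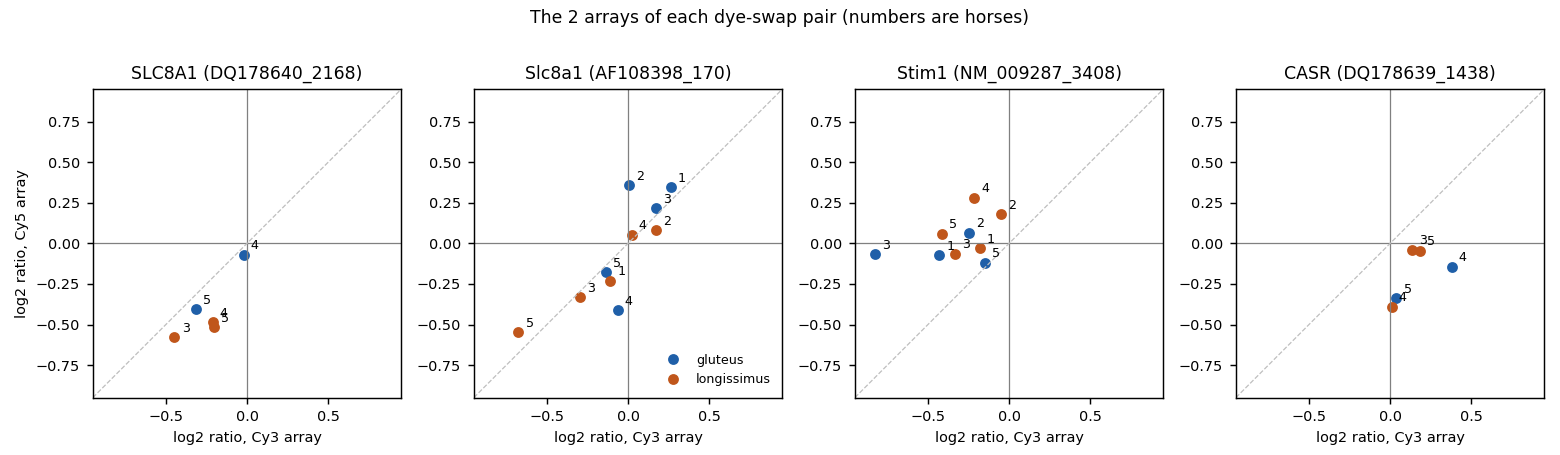
Log2 ratio on the Cy3 array (horizontal) against the Cy5 array (vertical) of each dye-swap pair, numbered by horse, with a dashed line where they would be equal. SLC8A1 lies below 0 on both axes in 5 of 5 pairs and Slc8a1 (AF108398_170) shares its sign in 10 of 10, while Stim1 is below 0 on all 9 Cy3 arrays and CASR lies at positive Cy3 and negative Cy5 values throughout.

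The muscles of a horse did not differ at the threshold for any tested member. The difference set the muscle means of the fit against each other and did not use the pairing by horse. Gluteus minus longissimus was 0.16 ± 0.14 (SE) for Slc8a3, with an interval from -0.15 to 0.48. Its gluteus ratio was the higher in 4 of 5 horses. For Stim1 the difference was -0.15 ± 0.12 (SE), from 4 gluteus and 5 longissimus horses, and lower in gluteus in 3 of 4 horses. For Orai1 it was -0.14 ± 0.19 (SE), for Slc8a1 0.075 ± 0.10 (SE) and for Casr 0.26 ± 0.33 (SE), and all adjusted p were 0.9998 in limma. Fitted on differences paired by horse, the SE was 0.099 for Slc8a3, 0.16 for Orai1, 0.11 for Slc8a1 and 0.23 for Casr. Stim1 was then at -0.13 ± 0.11 (SE, n = 4), and none was called. No tested member held 1 sign in all longissimus horses with a value, which 4.95% of tested features did. Averaged over both muscles of each horse, Stim1 was below 0 in 4 of 4 horses, and the share of all features that did so was not counted. Its mean was -0.17 ± 0.078 (SE, n = 4) with an interval from -0.36 to 0.025. That mean was -0.33 on Cy3 arrays and -0.0059 on Cy5 arrays. With the Cy3 array turned in pairs that correlate below 0 it was -0.0043. In the average of both muscles and both orientations, Orai1 was above 0 in 4 of 5, at 0.11 ± 0.097 (SE, n = 5), and at 0.21 without horse 2. Slc8a1, Slc8a3 and Casr were at -0.0080, -0.042 and 0.15. Without horse 4 the differences were 0.19 for Slc8a3, -0.13 for Stim1, -0.052 for Orai1, 0.16 for Slc8a1 and 0.021 for Casr, and the both-muscle means of Orai1, Slc8a1, Slc8a3 and Casr were 0.060, -0.021, 0.0047 and -0.015.

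Other genes of these pathways were likewise not called. Of 27 further genes of store-operated entry, 17 had a probe and 8 were tested, with 4 above and 4 below 0 in gluteus, 3 above and 5 below in longissimus, and 0 past the threshold in either. In gluteus the smallest p belonged to Sypl2, a membrane protein of the triad, at -0.36 ± 0.22 (SE, n = 5), from -1.46 in horse 4 to 0.14 in horse 5. Without horse 4 it was at -0.084. Next came the channel Orai2 at 0.080 ± 0.099 (SE, n = 5) and Jph2, which ties the reticulum to the surface membrane, at -0.099 ± 0.13 (SE, n = 5), or -0.022 without horse 4. In longissimus they belonged to the scaffold Homer3 at -0.43 ± 0.23 (SE, n = 5), the channel Trpc2 at -0.24 ± 0.15 (SE, n = 5) and Orai2 at -0.13 ± 0.099 (SE, n = 5). Horse 4 was the lowest in all 3, at -1.80, -0.99 and -0.58, and without it the means were -0.090, -0.056 and -0.021. Without that horse the list had 4 above and 4 below 0 in longissimus. Orai3 was at 0.034 and 0.0038 in the 2 muscles.

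Of 18 further genes of calcium extrusion and surface sensing, 15 had a probe and 8 were tested, with 3 above and 5 below 0 in gluteus, 5 above and 3 below in longissimus, and 0 past the threshold. The G protein subunits Gna11 and Gnaq, through which the calcium-sensing receptor signals, were at -0.18 ± 0.14 (SE, n = 5) and -0.15 ± 0.12 (SE, n = 5) in gluteus. Horse 1 was the lowest in both, at -0.73 and -0.43, and without it the means were -0.044 and -0.076. Nptn (neuroplastin), a partner subunit of the plasma membrane pumps, was at -0.23 ± 0.19 (SE, n = 5) in gluteus and 0.27 ± 0.19 (SE, n = 5) in longissimus, where horses ranged from -0.43 to 1.13 in horse 4 and the mean without horse 4 was 0.059. The exchanger Slc24a5 was at -0.20 ± 0.13 (SE, n = 4) and Gna11 at 0.086 ± 0.14 (SE, n = 5) in longissimus, and Gna11 at 0.061 without horse 4, for which Slc24a5 had no value. Without that horse the list had 4 above and 4 below 0 in longissimus, and 5 above and 3 below in gluteus. The pump Atp2b2 was at 0.12 and -0.014 and Bsg (basigin), another pump partner, at 0.064 and 0.0030 in gluteus and longissimus.

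Genes with the most similar pattern were sought among 3742 other symbols with all 10 horse and muscle values, each less the mean of its muscle. Orai1 was most like Pcid2 (Pearson r of 0.99), Tnfsf12 (0.97) and Vps26a (0.96), all of which were lowest in longissimus of horse 2, as Orai1 was. Casr was most like Sec61a1 (0.95), Tanc2 (0.94) and Ecm1 (0.94), which were highest in gluteus of horse 4 at 0.69, 1.35 and 1.90. Slc8a3 was most like Ramp1 (0.95), Tmem69 (0.93) and Ikzf3 (0.89), and Slc8a1 most like Atpaf1 (0.95), Adcyap1r1 (0.91) and Ppa1 (0.90). The Slc8a1 pattern is that of the average of both mouse-style probes, which correlated with each other at -0.36. The median absolute r of a member with all these symbols was 0.29 to 0.45. These coefficients rest on 10 values from 5 horses that share arrays and array kind.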

How the data were processed

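The authors deposited, for each array, the log2 ratio of its channels, with a normalization not given in the sources used here. That the scale is log2 follows from the values: the lowest, -6.6439, is the log2 of 0.01 and occurs 707 times, and the highest is 9.4043. Per the labels' protocols, RNA was extracted with TRIZOL, labelled through amino-allyl groups and hybridised with the dyes exchanged. Symbols came from the platform annotation (13692 of 24493 probes), and genome positions and probe sequences are not used here.

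Each array was centred on its median, both arrays of a pair were averaged, and probes of a symbol were averaged (22988 features). The 10176 features that had 4 or more of the 5 horses in both muscles entered a limma fit (version 3.58.1, R 4.3.3) with muscle as the factor and ratios tested against 0, with Benjamini-Hochberg adjustment at 0.05. The SE and interval of a muscle come from an estimate of spread shared by both muscles, not from its own horses alone. Per-horse means of both muscles were fitted apart (10063 features). The script was tested on simulated data. The muscles are paired, since the titles number the same 5 horses; deviations correlated within horse at -0.0976 to 0.58. Named were all member probes, from each pathway list the 3 tested members with the smallest p per muscle (with a few others picked after their values were seen: Orai3, Atp2b2 and Bsg), and the 3 most similar genes per member. Members and lists were chosen with earlier results of these data known.

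Marker lists had these numbers of tested symbols and median log2 ratios in gluteus and longissimus: fibre (8, -0.068, -0.46 and without horse 4 0.021), endothelium (3, 0.15, 0.035), smooth muscle and pericyte (2, -0.086, -0.056), macrophage (2, -0.061, -0.25), adipocyte (1, 0.023, 0.058), nerve and Schwann cell (2, -0.076, 0.016) and fibroblast and matrix (3, 0.14, 0.062). Without horse 4 the gluteus median was -0.29 for fibroblast and matrix, with 3 of 3 below 0, and 0.0215 for fibre. In longissimus it was then -0.063 for macrophage and -0.028 for nerve and Schwann cell. Alternatives were another orientation, no centring, floor values as missing, 1 array of a pair, at least 3 horses, single dyes, array kinds, single probes, muscles fitted alone, the horse as a block and each horse left out.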

Additional observations from a re-analysis of the deposited data

Results flagged for a closer look

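A single array gave a log2 ratio of 4.72 for Atp2b1 (probe BC029045_3021), in longissimus of horse 5 with RER RNA in Cy5. The Cy3 array of that pair had no value for the probe, so the 4.72 entered no mean of a dye-swap pair. The other Atp2b1 probe had 0.18 on the Cy3 array of that horse and muscle and no Cy5 value. Among 13 sets of 4 or 5 horses of a probe in a muscle, 0 held a horse beyond Dixon's criterion.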

How the results depend on the processing

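No member was called under any of the alternatives (325 values), and 33 of these values changed sign. Counts of called features over all features stayed at 0 except on Cy3 arrays alone (2 in gluteus, 2 in longissimus), Cy5 arrays alone (4, 92, and 7 in the mean of both muscles) and sparse arrays alone (1, 1 and 1). With the horse as a replicate block the counts were 0 in gluteus, longissimus and their paired difference, and Stim1 differed between muscles by -0.13. The replicate block changed no call.

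Signs of members changed as follows; the cause was not tested. With the Cy3 arrays of the 4 pairs correlating below 0 turned, gluteus Slc8a3 was -0.074 and Stim1 0.038, longissimus Casr -0.092 and the Stim1 difference 0.068. Without centring the both-muscle mean of Slc8a1 was 0.0014. On Cy3 arrays gluteus Slc8a1 was -0.023 and both-muscle Slc8a3 0.076. On Cy5 arrays gluteus Orai1 was -0.013 and Slc8a3 -0.078, longissimus Casr -0.12 and Stim1 0.085, and both-muscle Slc8a1 0.024. On dense arrays gluteus Casr was -0.050 and Orai1 -0.020, longissimus Slc8a3 0.082, the Casr difference -0.18, and both-muscle Slc8a1 0.020 and Slc8a3 0.12. On sparse arrays gluteus Slc8a1 was -0.068 and Slc8a3 -0.17, longissimus Casr -0.053 and the Slc8a1 difference -0.029. The NM_011406_3270 probe alone gave Slc8a1 0.095 in longissimus, -0.093 for the difference and 0.049 for both muscles. Leaving out each horse in turn gave Casr -0.0050 to 0.46 in gluteus, -0.15 to 0.13 in longissimus and -0.015 to 0.26 in both muscles, Slc8a3 -0.0064 to 0.098 in gluteus, -0.20 to -0.038 in longissimus and -0.094 to 0.022 in both, Stim1 -0.28 to -0.16 in gluteus, Orai1 0.085 to 0.34 in longissimus and 0.060 to 0.21 in both, and Slc8a1 -0.028 to 0.022 in both.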
